A study of Mus musculus with 6 samples.

Results

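Periplakin and 7 genes of the desmosome were read out of the 24421 genes counted by RNA sequencing in *Nhe6*-knockout and wildtype cultures. The 8 genes, *Ppl*, *Evpl*, *Dsp*, *Jup*, *Pkp2*, *Pkp4*, *Dsg2* and *Dsc2*, were found by gene symbol, and each had its own row of counts. *Ppl* was selected on its counts in this same contrast, as a gene known to be lower in these knockout libraries, so its difference between the genotypes is a description and no test of it is reported. The other 7 were added as relatives and partners, with earlier results of these libraries known.

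The libraries came from primary endothelial cells of the stria vascularis, the capillary-rich tissue of the lateral wall of the cochlea. Cultures were started from mice on postnatal days 10 to 12, each from several pooled animals, sorted by fluorescence and left untreated. There were 3 cultures from mice with a germline disruption of *Nhe6* and 3 from wildtype mice. For both genotypes the labels give a C57BL/6N background, while the methods name C57bl6/j, and the sex of the mice is not given in the sources used here.

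A desmosome is a button-like junction that ties the intermediate filaments of neighbouring cells together. Desmosomal cadherins, the desmogleins and desmocollins, bind across the gap. Inside the cell they hold plakoglobin and the plakophilins, and these in turn hold desmoplakin, which grips the filaments. Periplakin and envoplakin are plakins too, large linker proteins that can pair with each other at desmosomes and at the cornified envelope of the epidermis. Desmosomes are typical of epithelia and heart muscle. Most vascular endothelium is held by adherens junctions instead, where plakoglobin and plakophilin-4 (p0071) bind VE-cadherin.

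Each library held 25587097 to 29126232 reads assigned to genes. Values of a genotype are given in the order of replicates 1, 2 and 3. A normalized count is the number of reads scaled by edgeR's TMM method to the mean library size. Wildtype replicate 2 lay apart on the first principal component, at 112 against -30.4 to -6.49 for the other libraries. Among 12 endothelial markers, *Cldn5* had 0 reads in all libraries. *Tie1* had at most 2 reads, *Pecam1* 8, *Erg* 15, *Vwf* 25 and *Kdr* 68 in any library. *Emcn*, *Eng*, *Tek*, *Flt1*, *Cd34* and *Cdh5* averaged 100 normalized counts or more. *Emcn*, the highest on average, had 410 in wildtype replicate 2 and 9900 to 18390 in the other libraries. The sum of the endothelial markers was 16670 to 25750 in knockout and 15610 to 23440 in wildtype libraries. All 6 fibroblast markers were also abundant, with a sum of 208900 to 233500 and 165700 to 270000.

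*Ppl* was lower in the *Nhe6*-knockout cultures and, of the 8 genes, the one without overlap between the genotypes. It encodes periplakin and lies on chromosome 16 of GRCm38 from 5086291 to 5132421, on the minus strand, with no other annotated gene across it. In the knockout cultures it had 321, 449 and 70.1 normalized counts, and in the wildtype cultures 3016, 1182 and 1406. The highest knockout culture was thus below the lowest wildtype culture, and the cultures of each genotype also stood far apart. The means were 280 ± 193 (SD, n = 3 cultures) and 1868 ± 1001 (SD, n = 3), and wildtype cells held 6.67-fold more on average. Within the genotypes, the highest culture exceeded the lowest 6.41-fold in knockout and 2.55-fold in wildtype cells. The log2 fold change of knockout against wildtype was -2.74 (standard error 0.71). It stayed between -3.26, without knockout replicate 2, and -2.21, without wildtype replicate 1, when each culture was left out in turn. Since the genotypes did not overlap, leaving out a culture could not turn its sign, so this range describes only its size. In bulk RNA, fewer cells of a type and less RNA per cell cannot be told apart.

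**Figure D1:**
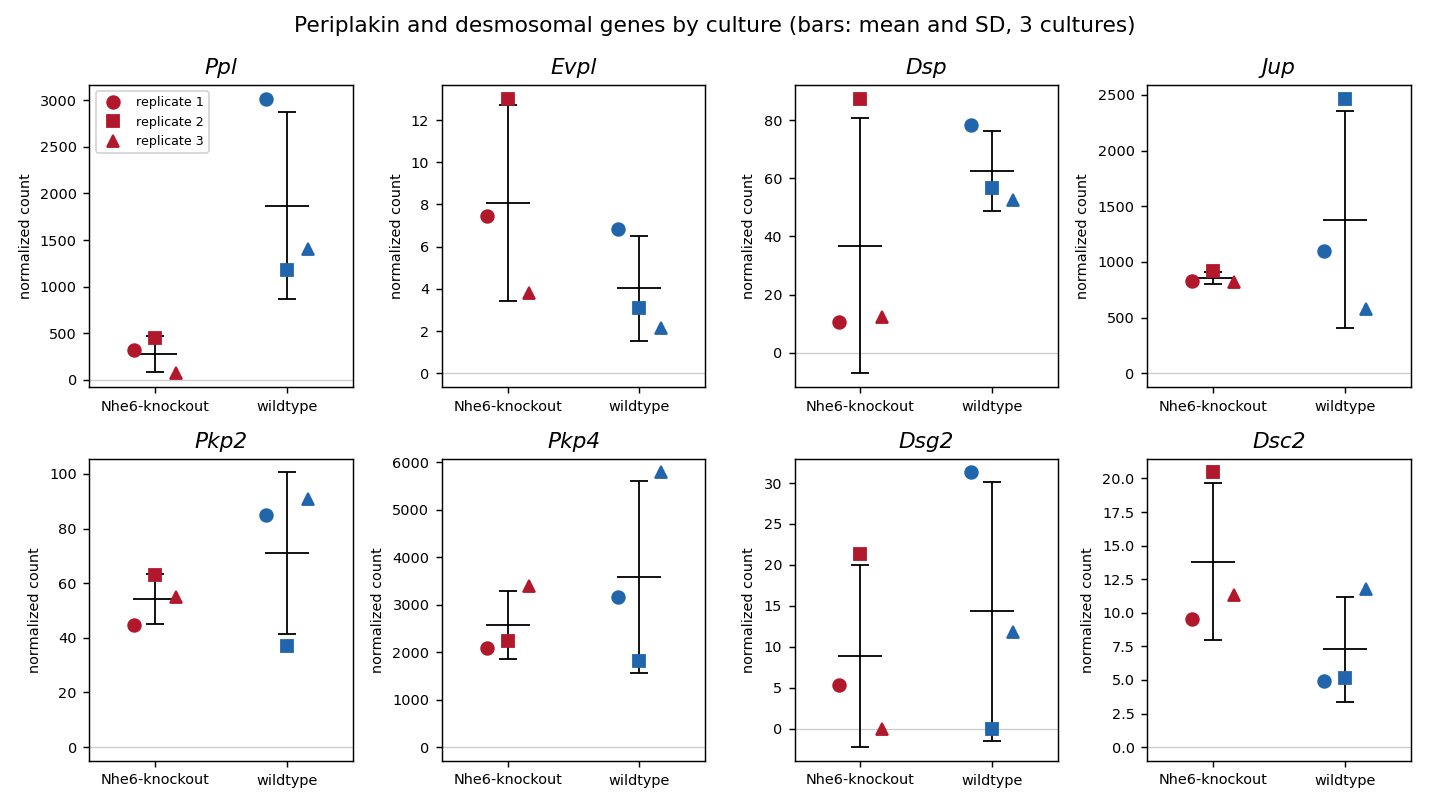
Normalized counts (linear vertical axes) of the 8 genes in each culture, with *Nhe6*-knockout in red and wildtype in blue, a symbol for each replicate number, and bars for the mean and SD of 3 cultures. For *Ppl* the red points (70.1 to 449) all lie below the blue points (1182 to 3016), and in the other 7 panels the genotypes overlap.

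*Evpl*, the gene of envoplakin, was close to the limit of detection. It lies on chromosome 11 from 116220559 to 116238077 and had 7, 14 and 4 reads in knockout and 7, 3 and 2 reads in wildtype libraries. The exact Poisson 95% interval was 7.65 to 23.5 reads for the highest of these counts and 0.242 to 7.22 for the lowest, and of all pairs of libraries these were the ones whose intervals did not overlap. *Evpl* was the member that did not pass the filter on low counts and was not tested. Fitted without that filter, its log2 fold change was 0.96 (standard error 0.78). Per kilobase of exon, *Ppl* exceeded its pairing partner 17.1- to 39.9-fold in knockout and 354- to 609-fold in wildtype libraries, ratios that rest on the few reads of *Evpl*.

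*Dsp*, the gene of desmoplakin, was low in 2 of the 3 knockout cultures and not in the third. It lies on chromosome 13 from 38151294 to 38198577 and overlaps *Gm10129*, annotated on the opposite strand. Whether the counting used the strand is not given in the sources used here. The knockout cultures had 10.6, 87.4 and 12.3 normalized counts and the wildtype cultures 78.2, 56.8 and 52.4. Knockout replicate 2 thus had the highest count of all libraries, while replicates 1 and 3 lay below every wildtype culture. The log2 fold change was -0.76 (standard error 0.84, 95% interval -2.79 to 1.27), and it was -2.43 without knockout replicate 2, -0.33 without replicate 1 and -0.35 without replicate 3. *Dsp* was at most 9.04 normalized counts per kilobase in any library. *Ppl* exceeded it 7.20- to 42.3-fold per kilobase in knockout and 29.2- to 54.0-fold in wildtype libraries.

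*Jup* encodes plakoglobin (γ-catenin), which serves both desmosomes and adherens junctions, and lies on chromosome 11 from 100368958 to 100397763. The knockout cultures were close together, with 830, 916 and 819 normalized counts. The wildtype cultures had 1100, 2465 and 576 and lay on both sides of them, with wildtype replicate 2 the highest and replicate 3 the lowest of all 6 libraries. The spread was 6.26% of the mean in knockout and 70.7% in wildtype cells. The log2 fold change of -0.69 (standard error 0.49, 95% interval -1.87 to 0.49) rested on wildtype replicate 2 and was 0.03 without it.

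The plakophilins are armadillo proteins that anchor desmoplakin at the plaque, and plakophilin-4 is found at adherens junctions as well. *Pkp4* lies on chromosome 2 from 59160850 to 59355208 and had 2082, 2234 and 3388 normalized counts in knockout and 3158, 1815 and 5789 in wildtype cultures. The genotypes overlapped over most of their range, and wildtype replicate 3 alone stood above all others. Its log2 fold change was -0.48 (standard error 0.43, 95% interval -1.52 to 0.55), and it was 0.05 without wildtype replicate 3. *Pkp2*, on chromosome 16 from 16213318 to 16272712, had 44.6, 63.2 and 54.9 normalized counts in knockout and 85.1, 37.2 and 90.9 in wildtype cultures. Wildtype replicates 1 and 3 were above, and wildtype replicate 2 below, every knockout culture, with a log2 fold change of -0.39 (standard error 0.42, 95% interval -1.40 to 0.63). Without wildtype replicate 2 it was -0.70.

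The desmosomal cadherins were barely detected. *Dsg2* (desmoglein-2, the isoform of simple epithelia and heart) lies on chromosome 18 from 20558074 to 20604521 and had 5, 23 and 0 reads in knockout and 32, 0 and 11 reads in wildtype libraries. In the libraries with 0 reads, a count of up to 3 reads is allowed by counting error alone. *Dsg2* overlaps the antisense gene *Gm16090*, and whether the counting used the strand of these stranded libraries is not given in the sources used here. *Dsc2* (desmocollin-2) lies on chromosome 18 from 20030633 to 20059554 and had 9, 22 and 12 reads in knockout and 5, 5 and 11 reads in wildtype libraries. It was the tested member with a log2 fold change above 0, at 0.92 (standard error 0.57, 95% interval -0.45 to 2.29). For *Dsg2* the value was -0.68 with a standard error of 1.51 and an interval of -4.31 to 2.95, and it turned to 0.60 without wildtype replicate 1. The cultures of each genotype differed in *Dsg2* by more than counting error, since the exact Poisson 95% interval was 21.9 to 45.2 for the 32 reads and 14.6 to 34.5 for the 23 reads, against at most 3.69 for a count of 0.

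Apart from *Ppl*, 6 members were tested. With edgeR's quasi-likelihood test and Benjamini-Hochberg adjustment over 13479 genes, 0 of the 6 passed the threshold of 0.05, against 0.0668% of all genes tested in either direction and 0.0371% lower in knockout, and 0 had an unadjusted p under 0.05, against 11.8%. With limma-voom 0 passed, against 0.0742%, and 0 had an unadjusted p under 0.05, against 11.8%. With DESeq2's Wald test 0 passed, against 4.69%, and 0 had an unadjusted p under 0.05, against 13.9%. With edgeR without wildtype replicate 2, 0 passed, against 2.92%. In that fit *Pkp2* and *Pkp4* had an unadjusted p under 0.05, as did 2608 of all 13479 genes tested. *Dsp* was also under it without knockout replicate 2 (842 of all genes), and *Jup* without wildtype replicate 3 (1882 of all genes). After adjustment 0 members passed in these fits. For the 6 the adjusted p of edgeR's test with all cultures lay between 0.595 (*Dsc2*) and 0.902 (*Dsg2*). With *Ppl* included, knockout libraries lay below all wildtype libraries for 1 of the 7, against 9.57% of all genes tested, and above them for 0, against 10.3% (19.9% in either direction). A log2 fold change below 0 was found for 6 of the 7, against 51.9% of all genes. Since the members were chosen with this contrast known, these counts describe the list and are no evidence about it.

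**Figure D2:**
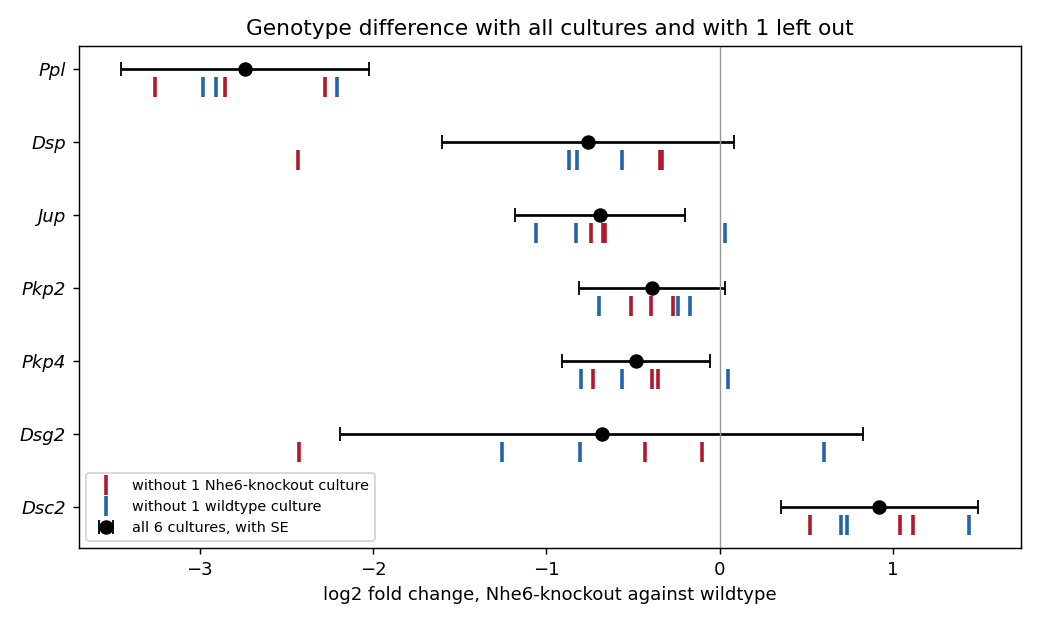
Log2 fold change (horizontal axis) of the 7 tested genes with all 6 cultures (black points, bars for the standard error) and after leaving out single cultures (ticks, red for an *Nhe6*-knockout and blue for a wildtype culture left out). *Ppl* stays between -3.26 and -2.21, *Dsp* reaches -2.43 without knockout replicate 2, and *Jup*, *Pkp4* and *Dsg2* cross 0 without 1 wildtype culture. The genotypes do not overlap for *Ppl*, so its sign could not turn.

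Levels of different genes were compared as normalized counts per kilobase of annotated exon, averaged over the 6 libraries. The order was *Pkp4* with 539, *Jup* with 174, *Ppl* with 156, *Pkp2* with 11.7, *Dsp* with 5.14, *Dsc2* with 2.00, *Dsg2* with 1.41 and *Evpl* with 0.948. *Pkp4*, *Jup* and *Ppl* were above *Pkp2* in every library, except knockout replicate 3, where *Ppl* (10.2) and *Pkp2* (10.2) were level. *Pkp4* exceeded *Jup* in all libraries but wildtype replicate 2. *Jup* and *Ppl* did not differ beyond their spread in wildtype cells (89.4 to 383 and 171 to 438), whereas in knockout cells *Jup* (127 to 142) was above *Ppl* (10.2 to 65.1) in every library. *Dsp* was below *Pkp2* in every library, though their ranges (1.10 to 9.04 and 6.93 to 17.0) overlapped. *Dsc2*, *Dsg2* and *Evpl* did not differ beyond their spread. The armadillo genes shared with adherens junctions and periplakin thus stood at the top, and envoplakin and the desmosomal cadherins at the bottom.

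Within the summed level of the 8 genes, the shares of *Ppl*, *Pkp2* and *Dsc2* did not overlap between the genotypes, while those of the other members did. Such shares have no counterpart over all genes. By counts, 1 of the 7 tested members, *Ppl*, did not overlap, against 19.9% of all genes tested. *Pkp2* took 1.37% to 1.88% in knockout and 0.782% to 1.33% in wildtype cultures. *Dsc2* took 0.289% to 0.617% and 0.0778% to 0.167%, so both shares were higher in knockout cultures. Shares of the same sum depend on each other, so a lower share of *Ppl* raises the others. By counts, *Pkp2* and *Dsc2* overlapped between the genotypes, and *Pkp2* was lower on average in knockout (54.2 against 71.1). The higher share of *Pkp2* thus describes the make-up of the sum and not a higher level of *Pkp2*. Of the summed level per kilobase, *Ppl* took 8.41%, 10.4% and 1.36% in the knockout and 36.7%, 19.3% and 15.3% in the wildtype cultures. *Pkp4* took the largest share in all libraries except wildtype replicate 2, with 62.3% to 79.7% in knockout cells. In wildtype replicate 2, *Jup* led with 43.2% over 35.9% for *Pkp4*. *Dsp*, *Dsg2*, *Dsc2* and *Evpl* each took at most 1.44% of any library.

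**Figure D3:**
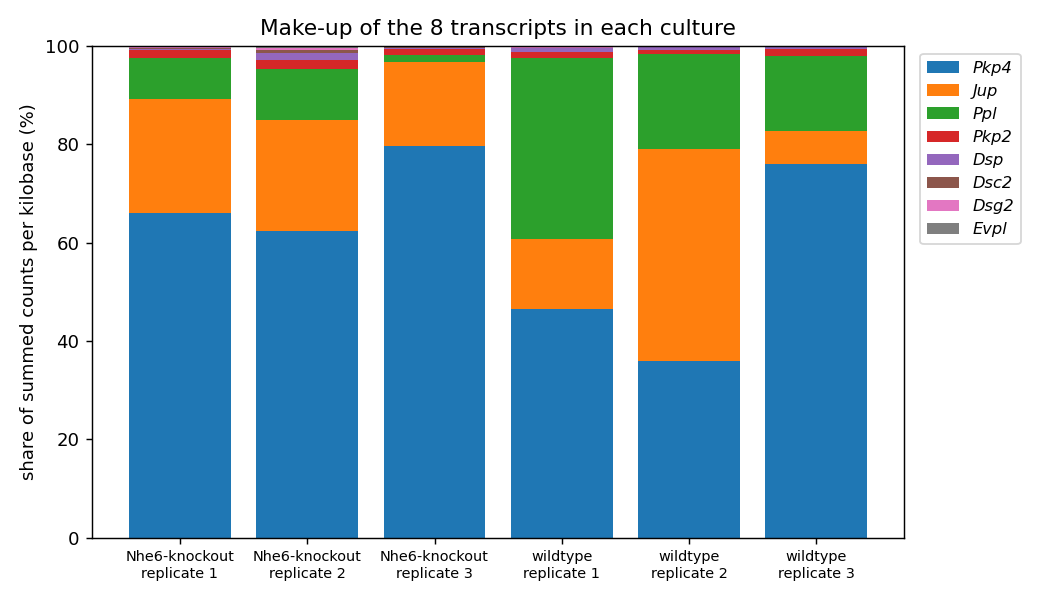
Share (percent, vertical axis) of each of the 8 genes in their summed normalized counts per kilobase of exon, 1 bar per culture. *Ppl* (green) takes 1.36% to 10.4% in the *Nhe6*-knockout cultures and 15.3% to 36.7% in the wildtype cultures, and *Jup* (orange) is the largest part in wildtype replicate 2.

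The list also varied strongly between cultures of the same genotype. The within-genotype SD of log2(normalized count + 1) was 1.12 for *Ppl* and 1.18 for *Dsp*, above 92.6% and 93.3% of all genes tested. It was largest for *Dsg2*, at 2.43 (above 99.3%), and smallest of the tested members for *Pkp2*, at 0.53. Counting error adds to this spread at low counts such as those of *Dsp* and *Dsg2*, and its part was not separated. Knockout replicate 2 had the highest count of its genotype for 7 of the 8 genes, *Pkp4* being the exception. In wildtype cells *Ppl*, *Dsp*, *Dsg2* and *Evpl* were highest in replicate 1, *Jup* in replicate 2, and *Pkp2*, *Pkp4* and *Dsc2* in replicate 3. Wildtype replicate 2, the library that stood apart, had the lowest wildtype count for *Ppl*, *Pkp2*, *Pkp4* and *Dsg2* and by far the highest for *Jup*.

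Epithelial markers had the same order of the cultures as *Ppl* within each genotype. Of 12 listed markers, 8 were tested and *Krt5* and *Krt14*, keratins of stratified epithelia, had 0 reads in all libraries. The 12 summed to 272, 850 and 72.0 normalized counts in the knockout and 1258, 86.7 and 561 in the wildtype cultures. *Dsg2* followed this order too in both genotypes, and *Evpl* and *Jup* followed it in knockout cells. In wildtype replicate 2, *Krt19* held 83.6 of the 86.7 counts, and the markers *Epcam*, *Cdh1*, *Krt8* and *Krt18* had 2.06, 1.03, 0 and 0. In that library *Ppl* had 1182 normalized counts and *Dsp* 56.8. In knockout replicate 3, the knockout library with the fewest epithelial counts, they had 70.1 and 12.3.

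Set against the epithelial sum, *Ppl* gave 0.528 to 1.18 counts per epithelial count in knockout and 2.40 to 13.6 in wildtype libraries, without overlap. The 13.6 was that of wildtype replicate 2, whose sum was 3.09 without *Krt19*. Since *Ppl* was selected on this contrast, its ratios are a description only. *Dsp* gave 0.0391 to 0.171 and 0.0622 to 0.655 counts per epithelial count, and these ranges overlapped. The sums themselves overlapped, with 72.0 to 850 in knockout and 86.7 to 1258 in wildtype. Without knockout replicate 2 and wildtype replicate 1, the libraries with the most epithelial counts, the log2 fold change of *Ppl* was -2.73 (standard error 0.78) and that of *Dsp* was -2.24 (standard error 0.51). In that fit *Dsp* had an adjusted p of 0.856 from edgeR. This fit was chosen after seeing the data. It leaves out the highest *Dsp* library of each genotype, and with it the knockout culture that overlapped the wildtype cultures. The larger value for *Dsp* therefore follows from that choice and is a description only. The part of epithelial cells in these levels was not tested.

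**Figure D4:**
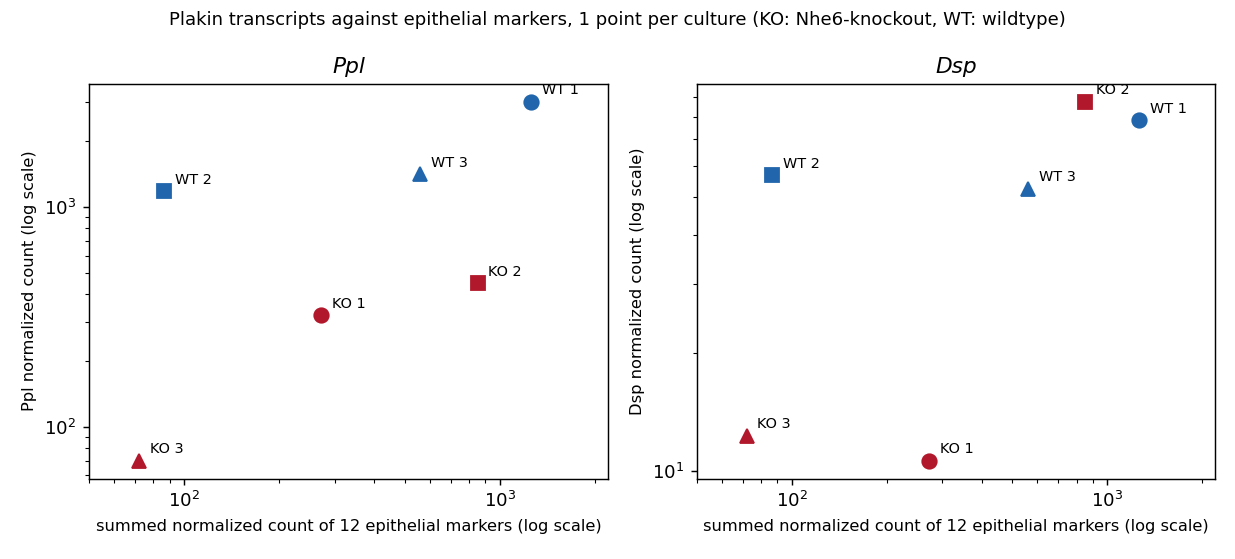
Normalized counts of *Ppl* (left) and *Dsp* (right) against the summed normalized counts of 12 epithelial markers, both axes on a log scale, 1 point per culture (KO for *Nhe6*-knockout in red, WT for wildtype in blue, with the replicate number). The wildtype points of *Ppl*, which was selected on this contrast, lie above the knockout points. Wildtype replicate 2 has 1182 counts at a marker sum of 86.7, of which *Krt19* held 83.6.

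Other cell types with desmosomes or related junctions were checked in the same way. The 7 striated muscle markers, of which 5 were tested, summed to 128, 304 and 229 normalized counts in the knockout and 332, 65.0 and 199 in the wildtype cultures, which is the order of *Ppl* in wildtype but not in knockout cells. Of the 6 mesothelial and arachnoid-type markers, 2 were tested. *Msln* was concentrated in wildtype replicate 2, with 823 counts against at most 104 elsewhere. The 6 markers of strial marginal and basal cells, of which 2 were tested, summed to 434, 575 and 16.1 in the knockout and 858, 999 and 346 in the wildtype cultures, the order of *Ppl* in knockout but not in wildtype cells. Most of these counts were *Cldn11*, a claudin of basal cells, with 6.63 to 431 in knockout and 215 to 990 in wildtype libraries, while *Kcne1*, a channel subunit of marginal cells, had 0 reads in all libraries. The part of these cells in the members' levels was not tested.

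The epidermal relatives of the members were nearly silent. Of 11 other desmosomal genes, 9 failed the filter on low counts, with *Dsg1a*, *Dsg1b* and *Dsg1c* at 0 reads in all libraries and *Pkp3* at no more than 19. *Perp*, a tetraspan protein of desmosomes and a p53 target, was the abundant exception. It had 358, 426 and 241 normalized counts in the knockout and 508, 8840 and 144 in the wildtype cultures. Wildtype replicate 2, which also had the most *Jup*, thus set the difference. The log2 fold change of *Perp* was -3.21 (adjusted p = 0.450 with edgeR, standard error 1.43) and 0.06 without that library. Of the tested pair, *Perp* and *Cdsn*, 0 passed the threshold (0.0668% of all genes) and 0 had an unadjusted p under 0.05 (11.8% of all genes). Their median log2 fold change was -1.75, against -0.02 for all genes tested, and it was -0.02 without wildtype replicate 2 and -0.85 with limma-voom.

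Among the larger plakins, which link filaments to actin and microtubules in many cell types, *Plec*, *Dst* and *Macf1* were tested and *Eppk1* was not. Their log2 fold changes were -0.10 (*Plec*, standard error 0.43), 0.03 (*Dst*, standard error 0.17) and -0.12 (*Macf1*, standard error 0.26), each less than its standard error from 0. Their median was -0.10 and turned to 0.14 without wildtype replicate 2. Per kilobase, *Ppl* was at 3.01% to 16.1% of the level of *Plec* in knockout and at 26.7% to 122% in wildtype libraries. Of the 3 plakins, 0 passed the threshold with edgeR (0.0668% of all genes) and 0 had an unadjusted p under 0.05 (11.8%).

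Of the armadillo relatives of plakoglobin and of the plakophilins, *Ctnnb1* and *Ctnnd1* averaged 5420 and 1867 normalized counts per kilobase, above all members, while *Arvcf* (111) and *Ctnnd2* (9.78) were below *Ppl*. *Ctnnb1*, β-catenin, had 25340 ± 701 normalized counts (SD, n = 3) in knockout and 30940 ± 3454 (SD, n = 3) in wildtype cells. The genotypes did not overlap, with knockout below as for 9.57% of all genes tested. The log2 fold change was -0.29 (adjusted p = 0.559 with edgeR, standard error 0.16). Per kilobase *Jup* reached 2.57% to 3.00% of the level of *Ctnnb1* in knockout and 1.5% to 5.78% in wildtype libraries. *Pkp4* reached 22.5% to 24.5% of the level of *Ctnnd1*, p120-catenin, in knockout and 14.9% to 47.0% in wildtype libraries. Both ratios were narrow in knockout cultures. For *Jup* the wildtype values were 3.23%, 5.78% and 1.5%. For *Pkp4* they were 45.4%, 14.9% and 47.0%, so that spread rested on wildtype replicate 2. Of the 4 relatives, whose median log2 fold change was -0.06, 0 passed the threshold with edgeR (0.0668% of all genes) and 0 had an unadjusted p under 0.05 (11.8%). *Cdh5*, the VE-cadherin that plakoglobin and plakophilin-4 bind, was lower in the knockout cultures, with 220, 232 and 179 normalized counts against 2509, 5200 and 3470 (adjusted p = 0.0133 with edgeR, log2 fold change -4.15, standard error 0.31). The paper already lists *Cdh5* among the most reduced genes of these same libraries, so this is no independent result. Of the other tested endothelial markers, *Flt1*, *Cd34* and *Kdr* had log2 fold changes below 0, and *Emcn*, *Eng* and *Tek* above 0.

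The filament genes were led by *Vim*, vimentin, with 58960 ± 4077 normalized counts (SD, n = 3) in knockout against 56780 ± 10790 (SD, n = 3) in wildtype cells and a log2 fold change of 0.05 (standard error 0.22). Keratins, the partners of desmoplakin in epithelia, were low. *Krt8* had 57.3, 145 and 12.3 counts in the knockout and 247, 0 and 69.5 in the wildtype cultures. *Krt18* had 46.7, 220 and 18.0 against 355, 0 and 118, so both keratins were highest in wildtype replicate 1 and at 0 in wildtype replicate 2. *Krt7* was higher in each knockout culture, with 150, 175 and 47.3 against 42.1, 1.03 and 20.3 counts (adjusted p = 0.420 with edgeR, log2 fold change 2.54, standard error 1.04). *Des*, desmin, the filament of muscle and pericytes, also did not overlap, with 89.0 to 167 counts in knockout and 4.13 to 56.7 in wildtype. These were 2 of the 10 tested filament genes, and 19.9% of all genes tested did not overlap in either direction. Of the 12 listed genes, 10 were tested, with a median log2 fold change of -0.21, which turned to 0.69 with limma-voom, 0.17 without wildtype replicate 2 and 0.06 without wildtype replicate 1. With edgeR 0 passed the threshold (0.0668% of all genes), and 1, *Krt7*, had an unadjusted p under 0.05 (11.8%). Without wildtype replicate 2, *Synm*, synemin, was past the threshold with a log2 fold change of -1.16 (adjusted p = 0.0472 with edgeR). In that fit 2.92% of all genes tested passed.

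Among 8 genes of epidermal differentiation, where periplakin and envoplakin scaffold the cornified envelope, 2 were tested. Their median log2 fold change was -1.02, or -0.65 without wildtype replicate 2. *Lor*, loricrin, had 18.6 to 29.4 normalized counts in knockout and 33.2 to 87.7 in wildtype libraries, without overlap (adjusted p = 0.330 with edgeR, log2 fold change -1.36, standard error 0.47). Of all genes tested, 9.57% had knockout below in this way. *Kazn*, kazrin, a binding partner of periplakin, had 105 ± 14.1 (SD, n = 3) and 168 ± 65.9 (SD, n = 3) counts and overlapped. *Ivl*, involucrin, had 68.1 counts in wildtype replicate 2 and at most 4.65 in any other library. Neither tested gene passed the threshold (0 with edgeR, 0.0668% of all genes), and 1, *Lor*, had an unadjusted p under 0.05 (11.8%). Over the 5 lists, 0 genes passed with DESeq2 and 0 with limma-voom.

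**Figure D5:**
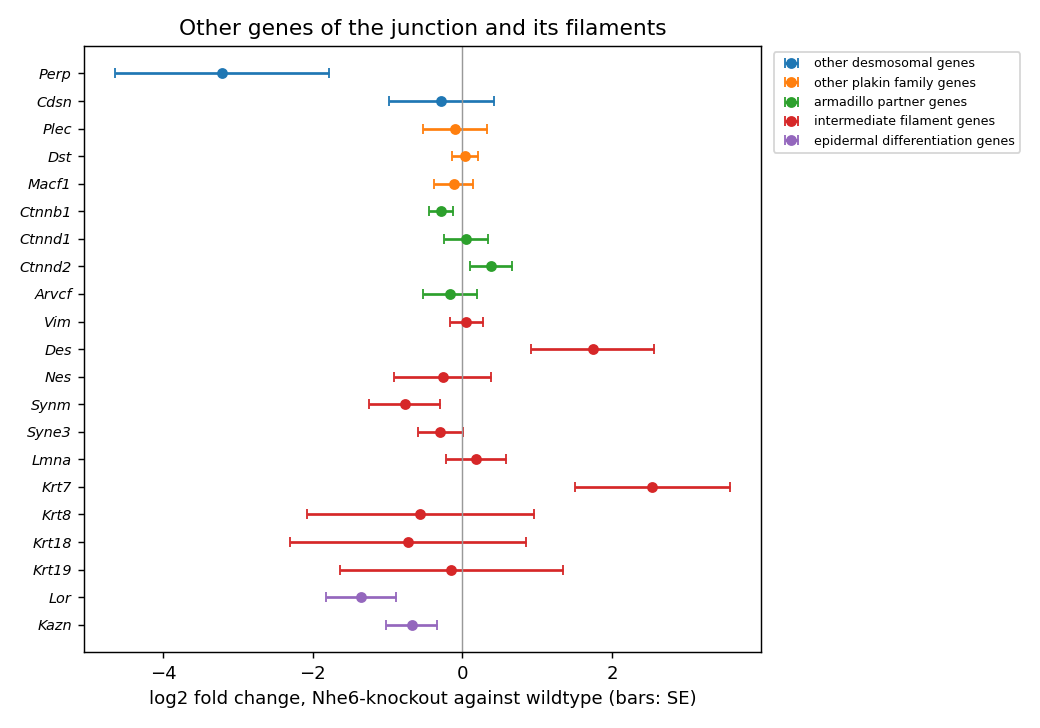
Log2 fold change (horizontal axis, bars for the standard error, 3 cultures per genotype) of the 21 tested genes from the 5 lists of related genes, coloured by list. *Perp* at -3.21 has a wide error and rests on wildtype replicate 2, while *Plec*, *Dst* and *Macf1* lie within 0.12 of 0.

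Over the 6 libraries, 5 genes were most like *Ppl* by the Pearson correlation of log2(normalized count + 1) among the 11124 genes that averaged 100 normalized counts or more. They were *Mettl7a1* (0.997), *Manba* (0.994), *Stx3* (0.991), *Mrps35* (0.989) and *Ghitm* (0.984). All 5 were lower in each knockout than in each wildtype culture, against 9.57% of all genes tested. This largely follows from their selection for likeness to *Ppl*. Their ranges were far smaller, for example 584 to 1482 counts for *Mettl7a1* and 7898 to 9248 for *Ghitm*. The genes most like 5 of the other members were *Plekhg3* for *Jup* (0.998), *Rfx2* for *Pkp2* (0.995), *Aox3* for *Pkp4* (0.990), *1500011K16Rik* for *Dsg2* (0.984) and *Taf5l* for *Dsc2* (0.965). Among the members themselves, the correlation over the 6 libraries was 0.75 for *Ppl* with *Dsp*, 0.82 for *Pkp2* with *Pkp4* and -0.71 for *Jup* with *Pkp4*. These values describe 6 libraries that share their genotype and wildtype replicate 2, and with so few points many genes reach such values.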

How the data were processed

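Poly(A)-enriched stranded libraries of 3 *Nhe6*-knockout and 3 wildtype cultures were sequenced with 75 cycles. The submitters' processing notes name bcl2fastq 2.20.0.422, STAR 2.7.7a, HTSeq 0.13.5, DESeq2 1.26.0 and the build mm10. The authors deposited raw counts of reads per gene symbol, 1 column per culture, and the last 5 lines, named as in htseq-count (22.2% of all reads), were left out.

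Genes were filtered with filterByExpr (minimum count 10), which left 13479. Counts were normalized by TMM, and edgeR 4.0.16 (R 4.3.3) tested knockout against wildtype by quasi-likelihood (two-sided, genotype alone, Benjamini-Hochberg adjustment over all genes tested, threshold 0.05), checked on simulated data. The standard error is the size of the log2 fold change divided by the square root of F. Alternatives were DESeq2 1.42.0, limma-voom (3.58.1), DESeq2 size factors, other filters, a replicate block and leaving out each culture. Exon lengths (union over transcripts) and positions came from GENCODE M21 on GRCm38, with a length for 96.3% of the genes tested. The text names the members, the genes of the lists and the genes most alike in pattern, and some genes that this rule covers are not reported here. Members and lists were chosen with earlier results of these data known. With 3 cultures against 3, the smallest exact two-sided permutation p is 0.1. Intervals and limits on reads cover counting error only. Protein and promoter sequences of the plakins were not used here.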

Additional observations from a re-analysis of the deposited data

How the results depend on the processing

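Since the genotypes did not overlap for *Ppl*, its direction could not turn when a culture was left out. Its log2 fold change lay between -3.26 and -2.21 under all 12 alternative settings, and with DESeq2 it was -2.74. With that tool the number of members past the threshold went from 0 to 1, which is *Ppl* itself and, since it was selected on this contrast, is no test of it. *Dsp*, *Pkp2* and *Dsc2* kept their direction, while leaving out 1 wildtype culture turned *Jup* (range -1.06 to 0.028), *Pkp4* (-0.80 to 0.047) and *Dsg2* (-2.43 to 0.60). The number of all genes past the threshold was 9 and became 21 without a filter beyond 1 count, 21 with at least 10 counts in every library, 627 with DESeq2, 1 to 393 with each culture left out (393 without wildtype replicate 2), and 0, chosen after seeing the data, without the libraries with most epithelial counts. Among intermediate filament genes it was 0 to 1 with each culture left out. The order of the members per kilobase was the same with the longest transcript as the length. The cause of these changes was not tested.

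With the replicate number as a block, 2 genes passed, and no member. Same-numbered cultures deviated together with correlations of 0.198, -0.204 and 0.0937, and wildtype replicate 1 correlated best with knockout replicate 2 (0.376), so the numbers were not taken as pairs. At 2 to 22 reads per library, depth limits *Dsc2* and *Evpl*, while *Dsg2* also varied between cultures by more than counting error. With the block, the median log2 fold change of the intermediate filament genes turned from -0.21 to 0.09 and that of the other plakins from -0.10 to 0.05.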
